A study of Mus musculus with 6 samples.

Results

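Between day 4 and day 5 after caerulein, interferon-stimulated genes of the sorted pancreatic macrophages went from some of their lowest levels of the course to levels above mock, at a median of 69.4% of the day 1 level for the antiviral effectors. The 2 libraries of these days, of 6 in the series, were compared over the 10000 genes with the highest mean over the 6 libraries, out of 31617 in the deposited table. The last gene taken had a mean of 74.13 normalised counts and the first left out 74.07. The mice were wild type Balb/c, fasted overnight and given 10 hourly intraperitoneal injections of caerulein at a dose that the labels write as 100 mg/kg. Caerulein mimics cholecystokinin and drives the enzyme-secreting acinar cells past their normal output. The mock library came from saline-injected mice and is called day 0, and days are counted from the first injection. Day 4 is named by the sample labels, while the design text lists days 1, 3, 5 and 7. Leukocytes were enriched with CD45.2 beads and sorted as CD45+CD11b+F4/80+. Each day is 1 library of RNA pooled from more than 3 mice, so nothing below has a replicate check and no p-value is given for a gene, and the labels give neither age nor sex.

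Interferons are secreted proteins that induce an antiviral state. Type I interferons bind the receptor of Ifnar1 and Ifnar2, whose kinases Jak1 and Tyk2 activate STAT proteins, and these join Irf9 in a complex that binds the interferon-stimulated response element in promoters. Type II interferon, from Ifng, acts through Ifngr1 and Ifngr2 on genes that hold the gamma-activated sequence. In macrophages both pathways raise proteins that block viral replication, present antigen and sense nucleic acids, and the genes respond in overlapping sets.

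The response element carries the core GAAANNGAAA, which was searched on both strands of the 250 bases before each gene's start in RefSeq's table for GRCm38.p6. It stood in at least 1 window of 3.46% of the 27025 genes of that table. Among expressed genes found in that table, 56 of 283 with the core (19.8%) were at least 2-fold higher on day 5, against 355 of 7676 without it (4.62%), while 10 (3.53%) and 218 (2.84%) were at least 2-fold lower. By list, at least 1 window held the core for 12 of 38 matched antiviral effectors (31.6%), 10 of 11 GBP and IRG GTPases (90.9%) and 7 of 15 Schlafen and TRIM genes (46.7%). The gamma-activated sequence TTCNNNGAA stood in windows of 6 of 11 of those GTPase genes (54.5%) and of 8.13% of all genes of the table. It stood in those of 4 of 38 effectors (10.5%) and 1 of 15 Schlafen and TRIM genes (6.67%). Among matched expressed genes, 36 of 411 higher (8.76%) and 17 of 228 lower genes (7.46%) held it, against 7.26% of all. Of the interferon-list genes found in that table, the 8 with the highest ratios that hold the core are shown because they lead the comparison. Each is read 5′ to 3′ along the gene with the core in capitals, in the reverse sense where it lies on the other strand.
Ifit3b, chr19:34607783-34607832, plus strand: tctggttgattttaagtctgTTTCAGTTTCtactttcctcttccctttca
Ifit3, chr19:34583387-34583436, plus strand: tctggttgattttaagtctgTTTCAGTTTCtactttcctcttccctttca
Ifit1, chr19:34640784-34640833, plus strand: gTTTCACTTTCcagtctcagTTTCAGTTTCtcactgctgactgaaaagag
Oas3, chr5:120777705-120777754, minus strand: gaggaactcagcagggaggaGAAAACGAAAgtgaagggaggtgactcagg
Trim30d, chr7:104507861-104507910, minus strand: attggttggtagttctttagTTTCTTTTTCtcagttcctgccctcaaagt
Tgtp2, chr11:49064253-49064302, minus strand: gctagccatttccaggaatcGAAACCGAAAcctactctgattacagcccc
Rsad2, chr12:26456543-26456592, minus strand: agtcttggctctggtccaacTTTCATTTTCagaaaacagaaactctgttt
Isg15, chr4:156200855-156200904, minus strand: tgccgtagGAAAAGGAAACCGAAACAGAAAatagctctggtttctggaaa
The core nearest the start lay 41 bases before it in Trim30d, 66 in Isg15, 70 in Tgtp2, 75 in Oas3, 85 in Ifit1, 120 in Rsad2, 122 in Ifit3 and 154 in Ifit3b. Isg15 holds 3 overlapping copies. The stretches of Ifit3 and Ifit3b are identical, and reads of these paralogs may not be separable, since no source used here says how such reads were counted. Of the 12 named genes with the highest ratios, Ifit2, Irf7, Slfn1 and Slfn4 hold no copy in their windows. Iigp1 and BC094916, also among the 12, were not found in the promoter table and could not be searched. A match is a description of letters, not a bound site.

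Over all expressed genes, 540 (5.40%) were at least 2-fold higher on day 5 than on day 4 and 311 (3.11%) at least 2-fold lower. Ratios are log2 ratios of normalised counts with a pseudocount of 17.8, which understates the change of low genes. Their median over the 10000 genes was 0.12, with quartiles at -0.23 and 0.46, and it is the level against which each list should be read. A number in parentheses after a gene or its 2 counts is this log2 ratio. This shift bears on the split of the calls: 63.5% of the genes past 2-fold were higher as scaled by the authors, and 68.1% with equal column totals. The share was 46.3% when ratios were centred on that median, 47.0% with TMM factors and 48.4% after quantile normalisation. It was 52.5% when centred within 10 bins of gene length and 40.6% within 10 bins of GC content. Of 194 expressed genes on the interferon lists, 112 were at least 2-fold higher and 1 was at least 2-fold lower. Since the RNA is bulk, fewer cells of a type and less RNA per cell cannot be told apart in any of these counts. The depth was 14853084 reads on day 4 and 17905449 on day 5. Because the count test below takes its spread from libraries of different days, changes over the course widen that spread. Few calls therefore cannot show that days 4 and 5 were alike. A count test that borrowed its spread from the other 4 libraries, taken as 1 group, called 0 of 14106 genes at an adjusted p of 0.05 by edgeR in either direction (0.00%), with 44 higher and 77 lower at an unadjusted p under 0.05. DESeq2 called 0 higher (0.00%) and 3 lower (0.0213%), the predicted genes Gm26870 and Gm10800 and the small RNA Rn7sk, with 104 higher and 125 lower unadjusted.

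**Figure D1:**
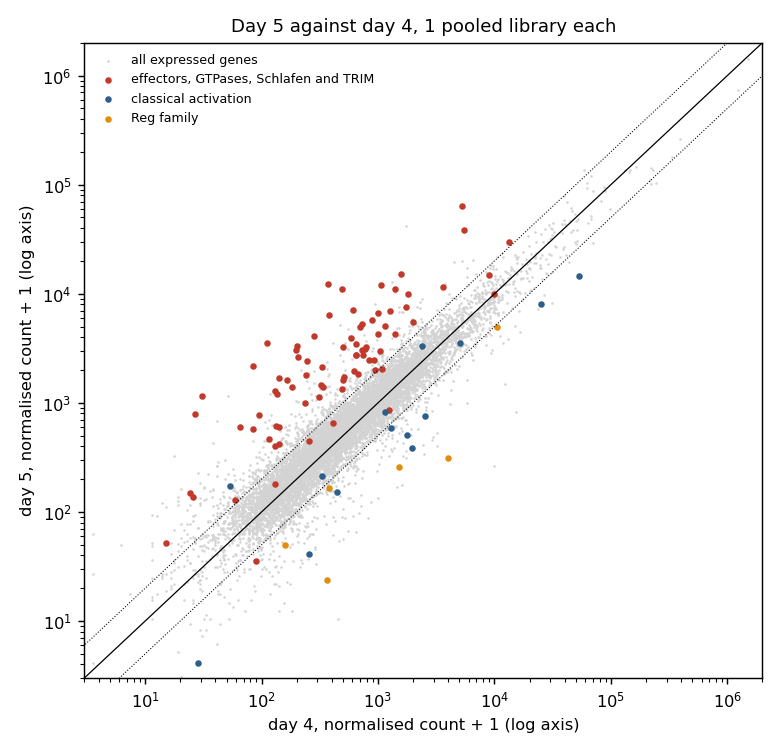
Normalised counts plus 1 of the 10000 expressed genes on day 4 (x axis) and day 5 (y axis), both on log axes, 1 pooled library each. The solid line marks equal values and the dotted lines 2-fold. Antiviral effectors, GTPases, Schlafen and TRIM genes (red) lie mostly above the upper dotted line, and classical activation genes (blue) and the Reg family (orange) mostly below the diagonal.

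Transcripts of the interferons themselves were scarce on both days. Of 21 listed interferon genes, 13 were found in the table, none was among the expressed genes, and 11 had no more than 3 reads on either day. Ifnb1, encoding interferon beta, had 9 reads on day 4 and 10 on day 5. Its normalised count was 222 in mock, then 20.9, 10.6, 11.6, 10.4 and 1.69 from day 1 through days 3, 4 and 5 to day 7, so mock was the high library and days 4 and 5 were alike. Ifng, encoding interferon gamma, had 26 reads on day 4 and 64 on day 5, or 33.6 and 66.6 as normalised counts, below its 109.8 in mock and 142 on day 7.

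The receptor genes hardly differed between the days, whereas the genes of the transcription factors downstream of them did. Of 11 expressed members of the receptor, JAK and STAT list, 4 were at least 2-fold higher and none lower, with a median log2 ratio of 0.13, near that of all genes, which fell below 0 when ratios were centred within bins of length or GC content. Ifnar1 went from 2343 to 2562 (0.13), Ifnar2 from 5399 to 5792 (0.10), Ifngr1 from 8858 to 8237 (-0.10) and Ifngr2 from 4588 to 4226 (-0.12), and the kinase genes Jak1 (0.05) and Jak2 (0.31) also stayed within 2-fold. Stat2 stood at 1665 in mock and 4994, 480, 559, 4110 and 2122 on days 1, 3, 4, 5 and 7, a log2 ratio of 2.84 with a 95% counting interval of 2.73 to 3.02. Counting intervals here are Clopper-Pearson intervals of the ratio of reads without the pseudocount, so for low genes the ratio can lie under its interval, and they do not cover differences between pools of mice. Also past 2-fold were Tyk2 (474 to 1022, 1.08) and Irf9 (1591 to 3376, 1.08), whose intervals of 0.94 to 1.29 and 0.99 to 1.18 reach under 1 and which came under 2-fold in 6 and 5 alternatives, down to 0.76 and 0.86.

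Irf7, which amplifies type I interferon production and is itself induced by interferon, had the largest change among the interferon regulatory factors. Its normalised count was 11970 in mock, then 78765, 2159, 1723, 41923 and 10833 from day 1 through days 3, 4 and 5 to day 7. Day 4 was thus the lowest of the 6 libraries and day 5 the second highest, with a log2 ratio of 4.59 (interval 4.53 to 4.68). The other 6 expressed factors stayed within 2-fold: Irf5 (0.95), Irf4 (0.62), Irf2 (0.56), Irf3 (0.41), Irf8 (0.24) and Irf1 (0.18). Irf1, an early target of the type II pathway, stood at 3883 on day 4 and 4390 on day 5.

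**Figure D2:**
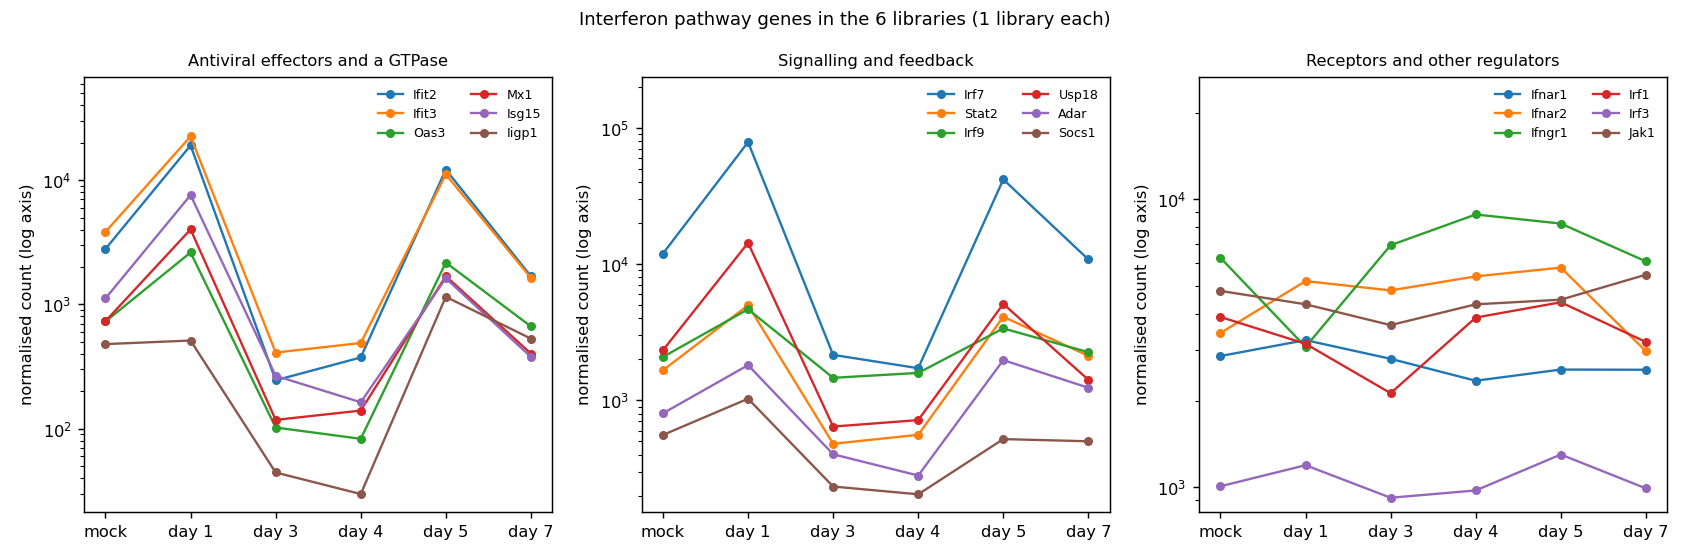
Normalised counts (y axis, log scale) of 18 genes in the 6 libraries (x axis), 1 point per library joined by lines. The effectors in the left panel and Irf7, Stat2, Usp18 and Adar in the middle panel are low on days 3 and 4 and high on day 5, while the genes in the right panel stay within 2-fold between days 4 and 5.

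The antiviral effectors were the largest interferon list and moved nearly together. Of its 52 genes 50 were found and 49 expressed, 45 of them at least 2-fold higher against the 5.40% of all genes, with a median log2 ratio of 2.13. In all 45 the counting interval lay wholly past 2-fold. Reads of the list made up 0.343% of the day 4 library and 1.76% of the day 5 library. Ifit2, whose protein binds viral RNA and restrains its translation, had the highest ratio of all expressed genes: its count was 2798 in mock and 19064, 245, 374, 12171 and 1687 on days 1, 3, 4, 5 and 7, a log2 ratio of 4.96 (interval 4.86 to 5.20). Its neighbours of the same family followed, with Ifit3b at 4.79, Ifit3 at 4.46 (489 to 11134) and Ifit1 at 3.85 (197 to 3081).

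Genes of the oligoadenylate synthetase family differed in size of change. Oas3 rose from 82.8 to 2172, a log2 ratio of 4.44, and Oasl1 and Oasl2 by 3.51 and 3.47. Oas2 (2.68) and Oas1b (1.87, from 24.6 to 137) changed less. The transcripts of the GTPase genes Mx1 and Mx2 had ratios of 3.44 (140 to 1688) and 3.13. Ratios of 2.8 to 3.6 were also found for Ly6e (5260 to 63938, 3.60), Cmpk2 (3.60), Ifi44 (3.24), Rsad2, encoding viperin (3.21), the ubiquitin-like modifier Isg15 (3.18), Ms4a4c (2.95), the exonuclease Isg20 (2.84) and Daxx (2.83).

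Low and absent changes in the effector list were few. Ifitm3 was 1.17 higher, Apobec3 0.64 higher, Ifitm2 unmoved at 9981 and 9923, and Ifitm1 was the member past 2-fold in the other direction, at 89.3 and 34.3 (-1.04). The last value came from few reads, with an interval of -2.02 to -0.76, and was -0.53 at the least under 4 alternatives that brought it under 2-fold. Per kilobase of exon, the level on day 5 was highest among effectors for Ifitm3 (43938), Ly6e (16897), Ifitm2 (15150) and Lgals3bp (13348), all above Ifit3 (6380), so the largest changes were not the largest levels.

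The course of the effectors placed day 5 between day 1 and mock. On day 4, 48 of the 49 were below their mock level, at a median of 0.427 times mock. On day 5, 46 were above mock, at a median of 2.06 times, and 39 had their second highest value of the 6 libraries. The level on day 5 was a median of 69.4% of that on day 1, from 13.5% to 176%, and 8 of the 49 exceeded it. On day 7, 48 were again below day 5. The minimum of the course was day 3 for 26 genes and day 4 for 18.

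The GBP and IRG GTPases, which coat and rupture the vacuoles of intracellular microbes, had a median of 2.44, and of 1.96 with a pseudocount 5 times larger, with 14 of 15 expressed members at least 2-fold higher and none lower. Iigp1 stood at 479 in mock, then 512, 44.4, 29.8, 1151 and 530 from day 1 through days 3, 4 and 5 to day 7, so that day 5 was its highest library and day 4 its lowest. Its log2 ratio was 4.62. Tgtp2 (283 to 4060, 3.76), Irgm2 (136 to 1217, 3.01), Gbp9 (2.81), Igtp (2.72), Ifi47 (2.65), Gbp4 (2.56) and Irgm1 (2.44) followed. Gbp5 was the member within 2-fold, at 58.2 and 127 (0.93). Gbp10 and Gbp6 were below the expressed set, with 2 and 3 reads on day 4 against 101 and 60 on day 5. Several of these genes are near-identical copies, so single values within the family are uncertain, Tgtp1 and Tgtp2 above all, and Tgtp1 (1.10) came under 2-fold in 4 alternatives.

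The Schlafen and TRIM genes, which include RNA-binding restriction factors and ubiquitin ligases of innate signalling, had a median of 1.91, with 12 of 16 at least 2-fold higher. Slfn4, a Schlafen gene of myeloid cells, stood at 3676 in mock and 48882, 371, 199, 3311 and 1390 on days 1, 3, 4, 5 and 7 (ratio 3.94). The day 5 value of Slfn4 was thus below mock, unlike Slfn1, which went from 380.4 to 6377 (4.01). Trim30d (25.9 to 791, 4.21), Trim30c (2.91), Slfn9 (2.81), Trim30a (2.06) and Slfn5 (2.06) were also higher, and Slfn2, the most abundant of the family per kilobase, was 0.74 higher. Trim21 (1.80) and Trim14 (1.63) were past 2-fold and Trim25 (0.90) and Trim56 (0.45) were not.

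All 24 expressed nucleic acid sensors and adaptors had ratios above 0, where 5927 of the 10000 expressed genes had. Of the 24, 9 were at least 2-fold higher, with a median of 0.77. Those past 2-fold included the receptors of RNA in the cytosol Ddx58, which encodes RIG-I (549 to 3087, 2.45), Ifih1, which encodes MDA5 (2.36), and Dhx58, which encodes LGP2 (2.72). Zbp1, a sensor of Z-form nucleic acid, went from 474 to 5116 (3.39), Ifi204 from 739 to 5334 (2.82) and Mb21d1, the cGAS gene, from 202 to 537 (1.34). The signalling adaptors stayed within 2-fold: Myd88 at 0.75, Tmem173, which encodes STING, at 0.51, Mavs at 0.43 and the kinase Tbk1 at 0.40.

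Negative regulators differed among themselves. Usp18, which removes Isg15 from proteins and blocks the type I receptor, went from 717 to 5108 (2.80), the RNA editing enzyme Adar from 281 to 1976 (2.74), Socs1 from 204 to 520.0 (1.28) and the phosphatase Ptpn6 from 5954 to 11984 (1.01). Ptpn6 came under 2-fold in 5 alternatives, at 0.77 to 0.998, and Socs1 in 1, at 0.92 when centred within bins of GC content. Socs3, which restrains the interleukin-6 pathway, was 9822 and 9243 (-0.09), and Ptpn2, Cish and the 3 RNase H2 subunit genes had ratios between -0.81 and -0.02. The list median was -0.02 over 13 expressed members. It lay above 0 with equal column totals and over the 6000 genes with the highest mean.

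Antigen presentation by MHC class I moved with the effectors. All 20 expressed members of the list had ratios above 0, where 5927 of the 10000 expressed genes had. Of the 20, 13 were at least 2-fold higher and none lower, and the median was 1.35. The highest ratios were those of the nonclassical genes H2-T24 (551 to 4787, 3.08), H2-Q7 (365 to 2357, 2.63) and H2-Q6 (2.44), while other nonclassical genes ranged down to H2-Q4 (1.16) and H2-M3 (0.92). The peptide transporter genes Tap1 (792 to 3657, 2.18) and Tap2 (1.38) were higher, as were H2-T23 (1.92), the transactivator Nlrc5 (1.91) and the chaperones Tapbpl (1.77) and Tapbp (1.65). The classical H2-K1 and H2-D1 were 1.31 and 1.20 higher (H2-D1 0.89 when centred within bins of GC content), and B2m, the light chain, 0.44. Class I genes are alike in sequence, and the split between them is uncertain.

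Subunits that replace those of the standard proteasome during an interferon response had higher ratios than the standard subunits. The 5 immunoproteasome and activator genes had ratios of 0.58 to 1.00, with Psmb9 just past 2-fold (1.004, and 0.77 to 0.97 under 6 of the alternatives) and Psmb8 at 0.90, while the 14 genes of the standard core lay between -0.53 and 0.04 with a median of -0.26. In contrast, none of the 10 expressed MHC class II genes changed by 2-fold, with a median of -0.18, and Ciita, their transactivator, was 567 and 512.

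Chemokines linked to interferon were not carried along as a group. Of 8 expressed, 2 were at least 2-fold higher and the median was 0.20, which fell below 0 over the 6000 genes with the highest mean. Ccl12, a monocyte attractant, went from 1449 to 4838 (1.73) and Ccl5 from 93.2 to 235 (1.19). Cxcl10, often used as an interferon reporter, stood at 1449 in mock, then 6276, 519.8, 450.3, 735 and 106 from day 1 through days 3, 4 and 5 to day 7, a ratio of 0.69. Ccl3 (-0.86), Ccl4 (-0.60) and Ccl2 (-0.60) were lower within 2-fold. Among cytokines and surface ligands, 5 of 13 were at least 2-fold higher: Tnfsf10, which encodes TRAIL (40.1 to 213), Il27 (1.25), Il15 (1.17), the decoy Il18bp (1.13) and Cd40 (1.10). Of these, Cd40 came under 2-fold in 5 alternatives, down to 0.94, and Il27 in 2, down to 0.77, as did Ccl5, down to 0.83. Cd274, which encodes PD-L1, was 0.49 higher.

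Among genes associated with the type II pathway, 5 of 9 expressed were at least 2-fold higher (median 1.28), 4 of which also stand on other interferon lists. The fifth, the protease inhibitor gene Serpina3g, went from 114 to 692 (2.43). Cxcl9 was below the expressed set, with 33 reads on day 4 and 164 on day 5, and Nos2 had 2 and 4. In the cell death list 1 of 11 genes was past 2-fold, the necroptosis effector Mlkl (113 to 319, 1.37), while Gsdmd (0.85), Ripk3 (0.68) and Casp1 (0.35) were not.

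**Figure D3:**
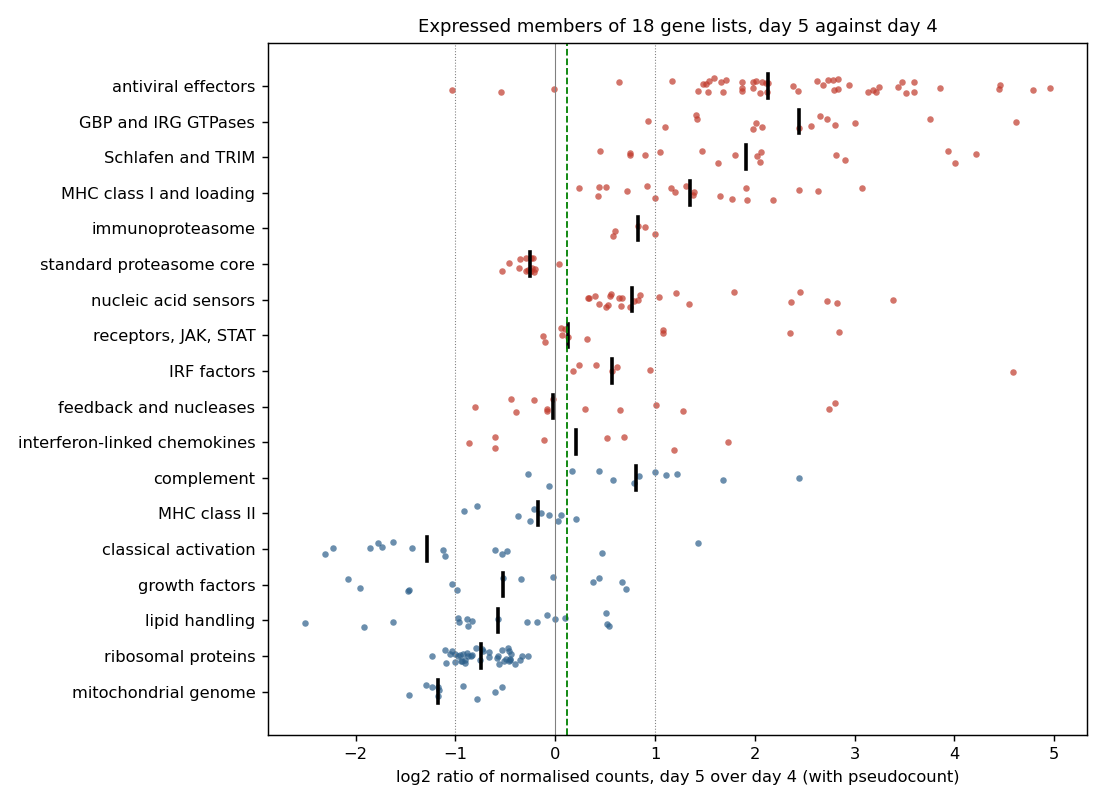
Log2 ratios of day 5 over day 4 (x axis) for each expressed member of 18 gene lists (rows), 1 dot per gene, with the list median as a black bar. The dashed green line is the median of all expressed genes, 0.12, and the dotted lines mark 2-fold. Effectors, GTPases, Schlafen and TRIM genes and MHC class I lie to the right of it, and classical activation and mitochondrial genome genes to the left.

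Genes outside every list moved on the same days. The 10 with the highest ratios, by a rule set after the data were seen that also leaves out predicted genes and the other names kept out of the ranking, were BC094916, Pydc3, Cd300e, Cd72, BC147527, Znfx1, Spon1, Sdc3, Phf11d and Mnda. Of the names left out, the predicted genes Gm20559 and Gm12250 stood at 3.20 each. Cd72, an inhibitory C-type lectin best known from B cells, stood at 2543 in mock and 3250, 1278, 1324, 12691 and 4340 on days 1, 3, 4, 5 and 7 (ratio 3.24). Day 5 was the highest of its 6 libraries and day 7 the next. Sdc3, a cell surface proteoglycan, went from 1387 to 10320 (2.88), and Znfx1, a helicase-like antiviral factor, from 413 to 3528 (3.04). Ifi27 carries an interferon name and was lower, at 2972 on day 4 and 482 on day 5 (-2.58).

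Of the 540 higher genes, 176 were also at least 2-fold higher on day 1 than in mock, which is 32.6% of them and 26.3% of the day 1 genes, where 6.68% of all expressed genes were. Outside the interferon lists it was 103 of 428 (24.1%). A further 69 of the 540 (12.8%) had gone down by 2-fold or more from mock to day 1, where 9.58% of all expressed genes had. Of the 311 lower genes, 101 (32.5%) had gone down and 31 had gone up by 2-fold or more from mock to day 1. The 4 libraries of these 2 comparisons are distinct.

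Some macrophage surface genes were higher on day 5. All 17 core macrophage genes were expressed. In the macrophage core list 3 of 17 genes were at least 2-fold higher and none lower (median 0.45, and 0.10 when centred within bins of GC content), including the high-affinity IgG receptor Fcgr1 (3787 to 12289, 1.69) and Adgre1, which encodes F4/80 itself (11541 to 23702, 1.04, and down to 0.88 under 4 alternatives). Of the other sort genes, Ptprc (CD45) was 0.27 higher and Itgam (CD11b) 678 and 687. Siglec1, the sialoadhesin of resident macrophages and an interferon target, went from 933 to 8030 (3.08). Lyve1 (122 to 621, 2.20) and Timd4 (142 to 546, 1.82), a receptor for dying cells, were also higher but still below their mock levels of 6005 and 2704. The resident list as a whole was mixed, with 3 higher and 3 lower of 15.

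Receptors and complement genes were among those higher. Of 14 chemokine and chemoattractant receptors 5 were at least 2-fold higher and 3 lower, the higher ones including the formyl peptide receptors Fpr1 (256 to 1863, 2.78) and Fpr2 (179 to 797, 2.05). Axl, which takes up dying cells and dampens interferon signalling, went from 2310 to 8464 (1.87). In the complement list 4 of 12 were at least 2-fold higher and none lower (median 0.81): C4b, which stood at 1444 in mock, then 491, 156, 361, 2038 and 4772 from day 1 through days 3, 4 and 5 to day 7, C3 (1.68), Serping1 (1.22) and C1ra (1.11), the last 2 under 2-fold in 1 and 5 alternatives, down to 0.83 and 0.89. C4b was still higher on day 7 than on day 5, unlike the effectors. Inhibitory receptors had 4 of 16 higher, with Siglece at 1.86, Cd22 at 1.42 and Lair1 at 1.31 beside Siglec1. In cholesterol synthesis and uptake 4 of 17 were higher and none lower (median 0.86, and 0.54 with a pseudocount 5 times larger), including Sqle, the squalene epoxidase gene, at 90.6 and 283 (1.47), and Cyp51 at 1.03, whose interval reached under 1 and which came under 2-fold in 6 alternatives, down to 0.82. Of the heat shock genes, Hspa1b (4456 to 19392, 2.12) and Hspa1a (1.56) led 3 of 12 that were higher.

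Genes of classical macrophage activation were lower on day 5. In that list 9 of 14 expressed genes were at least 2-fold lower against the 3.11% of all genes and 1 was higher, with a median of -1.28. Il1a, encoding interleukin-1 alpha, stood at 2450 in mock and 140.3, 1161, 1951, 381 and 86.2 on days 1, 3, 4, 5 and 7 (-2.31). Il6 went from 256 to 40.6 (-2.23), the neutrophil attractant Cxcl2 from 53125 to 14614 (-1.86) and the lectin Clec4e from 1756 to 501 (-1.77). Il12b was the member that was higher, at 1.43, named here after its value was seen. Cxcl1, another neutrophil attractant, was among the 12 lowest genes, at 12283 and 1487 (-3.03), and its levels on days 5 and 7 were the lowest of the course. Nfkbia, the inhibitor induced by NF-kappaB, was 69828 and 29228 (-1.26, and -0.92 when centred within bins of length), 1 of 2 lower genes among the 16 of its list, whose median was 0.21 (below 0 when centred within bins of length).

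The lowest genes by ratio also included Retnlg, Reg3b, Reg3g, Chil3, Serpinb2, Ccr3, Tnfsf9, Cyp4f18, F5, Il1r2 and Htr2b. Chil3, a chitinase-like protein of monocytes and alternatively activated macrophages, was 1593 and 177 (-3.05) and Tnfsf9, which encodes the ligand of 4-1BB, 3197 and 399 (-2.95). Growth factor genes were lower in 5 of 13, including Areg (141 to 19.8, -2.08), Vegfa (572 to 134, -1.96), Igf1 (2596 to 922, -1.47) and Hbegf (-1.47). In lipid handling 3 of 17 were lower (median -0.57), led by Fabp5, a fatty acid carrier (5755 to 998, -2.51), and Spp1, which encodes osteopontin (31164 to 8256, -1.91). The transcriptional regulators Id2 (-1.88) and Id3 (-1.71) were lower as well.

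**Figure D4:**
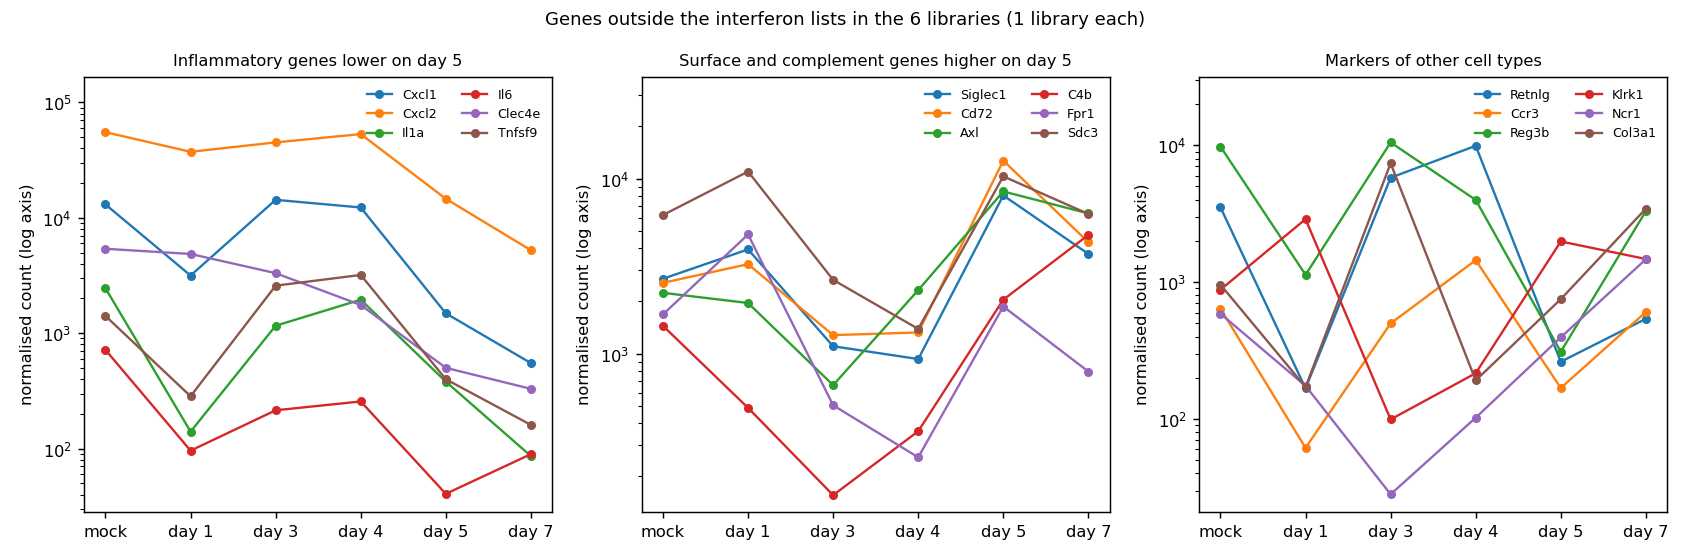
Normalised counts (y axis, log scale) of 18 genes outside the interferon lists in the 6 libraries (x axis), 1 point per library joined by lines. The inflammatory genes of the left panel fall from day 4 to day 5, the surface and complement genes of the middle panel rise, and the right panel shows markers of other cell types, of which Retnlg, Ccr3 and Reg3b fall and Klrk1, Ncr1 and Col3a1 rise.

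Markers of other cell types moved on the same days, and their part in the results above was not tested. The summed level of the natural killer cell list was 793 on day 4 and 3913 on day 5, with 7 of 8 expressed markers at least 2-fold higher (median 1.64, and 1.08 with a pseudocount 5 times larger). The sum had been 4536 in mock and 4123 on day 1. Klrk1, an activating receptor that other cells can carry, made up 1982 of the day 5 sum. Ncr1, which defines the lineage, went from 102 to 395 (1.78) and Prf1 from 18.1 to 126. Eosinophil, mast cell and basophil markers summed to 2304 on day 4 and 382 on day 5, and the 3 expressed ones were all lower: Ccr3 (1448 to 168, -2.98), Siglecf (494 to 105, -2.06) and Ear2 (-1.96). Mouse eosinophils can carry CD11b and F4/80. Of that list, Mcpt8, Mcpt4 and Fcer1a had 0 reads on both days, and Epx had 9 and 2. Neutrophil markers summed to 15490 and 5030, with 7 of 9 lower (median -1.80, and -0.99 with a pseudocount 5 times larger): Retnlg, the lowest of all named genes, stood at 3522 in mock, then 167, 5792, 9911, 262 and 540 from day 1 through days 3, 4 and 5 to day 7 (-5.15). S100a9 was 603 and 90.5, while Ly6g, which defines neutrophils, had 4 and 1 reads.

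Among the lists of other leukocytes, T cell markers summed to 1861 on day 4 and 2406 on day 5 with 2 of 12 higher (median 0.21, and 0.08 to 0.65 over the alternatives), and B cell markers to 14984 and 18526 with 3 of 10 higher (median 0.48, and 0.29 to 0.64 over the alternatives), Ighm making up most of the latter. Plasmacytoid dendritic cell markers, of the cells known for type I interferon, had 1 of 8 higher, Bst2, an interferon-induced gene that also stands among the effectors. Siglech was 514 and 500 and Ccr9 69.9 and 87.4.

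Markers of the pancreas itself differed too. The 6 expressed Reg genes, secreted by acinar cells under stress, were all at least 2-fold lower (median -1.96), with Reg3b going from 3988 to 310 (-3.61) and Reg3g from 362 to 22.9 (-3.23). Acinar enzyme genes summed to 73188 on day 4 and 54387 on day 5, the 2 lowest of the 6 libraries, against 999734 in mock, and split into 1 higher and 2 lower of 22. Duct and epithelial markers were lower in 4 of 7, with Krt8 at 232 and 65.5. Spp1, given above under lipid handling, was 1 of these 4 and made up most of the list's sum of 31850 and 8545. Krt18 (-1.45) and Krt19 (-1.33) came under 2-fold with a pseudocount 5 times larger, at -0.999 and -0.46. Erythroid markers were lower in 2 of 3, with the sum going from 326 to 39.5. Fibroblast markers were higher in 4 of 8 (median 1.08, and 0.65 with a pseudocount 5 times larger), with Col3a1 at 191 and 751 (1.88), far under its 7376 on day 3.

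The 2 libraries also differed in the make-up of their RNA, whose part in the results was likewise not tested. Genes of the mitochondrial genome were at least 2-fold lower in 6 of 10 (median -1.17) and ribosomal protein genes in 7 of 40 (median -0.75). No member of either list had a ratio above 0. Of 4 markers of ribosomal RNA reads, 3 were at least 2-fold lower (median -1.44), led by Lars2 (-1.70). The nuclear noncoding RNAs Malat1 (-0.94) and Neat1 (-0.91) were lower within 2-fold. Predicted gene Gm10800 stood at 1310 in mock and 15221 on day 4 against 830 on day 5, and the small nuclear RNA gene Rn7sk at 449 and 9.36. With expressed genes split into 4 equal bins by exonic length, the shortest had a median ratio of -0.14 and the others 0.17, 0.22 and 0.17. By GC content the medians went from -0.04 in the lowest bin to 0.32 in the highest. Within the bins of length, from short to long, the effectors had medians of 2.73, 2.83, 2.06 and 1.66, and within those of GC content, from low to high, 2.84, 2.06, 1.87 and 2.78.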

How the data were processed

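The authors deposited a table of normalised signal, 1 value per gene and library, for 31617 genes. Every column holds whole multiples of 1 step, so whole reads were recovered, and 100% of values came out whole within 0.01 reads. Depth was 14853084 to 25726455 reads a library, and a floor of 3 reads was worth 2.11 to 3.88 normalised counts. The submitters' processing notes name Bowtie 0.12.2 and build mm8 and assign them to no step. No source used here gives the counter, its annotation or whether it used strand, and promoter positions are those of RefSeq's GRCm38.p6.

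The 10000 genes of highest mean were taken as expressed. Log2 ratios used a pseudocount of 17.8. Intervals are 95% Clopper-Pearson and cover counting error alone: without molecular identifiers, reads cannot be taken as independent molecules. With 1 library a day no pair of days can be tested, and the count tests (edgeR 4.0.16 and DESeq2 1.42.0 in R 4.3.3, genes with at least 60 reads over 6 libraries) give numbers of calls only, with Benjamini-Hochberg adjustment.

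Members, 70 gene lists and tests were chosen with earlier results of these data known. Named genes are the 12 highest and 12 lowest, the expressed members of the interferon lists, up to 4 members of each other list with the largest ratios, and the 3 sort genes. Predicted genes, pseudogenes, small RNAs and antigen receptor segments were kept out of the first of these. Genes outside this rule were named after their values were seen. Some genes that the rule names are left out of the text. Members were matched by current or older symbols. Exonic length and the GC content of the longest transcript came from GENCODE M21 by gene identifier, which matched 99.9% of expressed genes. The calculations, in Python 3.11.15 with scipy 1.17.1, pandas 2.3.3 and numpy 2.4.6 (figures: matplotlib 3.10.9), were tested on simulated data.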

Additional observations from a re-analysis of the deposited data

How the results depend on the processing

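With 1 library a day, no replicate could be left out. No paired analysis was possible because each day has 1 library. The numbers of higher and lower genes, 540 and 311, became 345 and 192 with a pseudocount 5 times larger and 331 and 485 when ratios were centred within 10 bins of GC content, an alternative added after the data were seen, as was that for length. Lower genes numbered 169 over the 6000 genes with the highest mean. The count tests called 0 genes in either direction by edgeR, and 0 higher and 3 lower by DESeq2, against 44 higher and 77 lower (edgeR) and 104 higher and 125 lower (DESeq2) at an unadjusted p under 0.05. Their spread comes from mock and days 1, 3 and 7 taken as 1 group. It takes in changes over the course, which are large for interferon genes, so the tests could hardly call these. Requiring the whole counting interval past 2-fold left 370.0 higher and 225 lower. The median of the antiviral effectors, 2.13, was 2.32 with a pseudocount 5 times smaller and 2.44 over 6000 genes, and otherwise lay between 1.997 and 2.17. Leaving out the acinar, Reg, erythroid, mitochondrial genome, fibroblast, natural killer, T or B cell list removes only its own called genes, which left 533 to 540 higher genes, and none of these lists holds an effector. No named gene past 2-fold changed sign under an alternative. This outcome was nearly fixed in advance and is no check of these genes. A change of pseudocount or gene number cannot turn a sign, and the other alternatives move ratios by small amounts. Of 240 named genes past 2-fold, 67 came under 2-fold in at least 1 alternative. Where the cause of a change in number is not the alternative's own construction, it was not tested.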
